A study of Capra hircus with 29 samples.

Results

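The Aurora kinases (AURKA, AURKB and AURKC), the Polo kinases PLK1 and PLK4, and the spindle checkpoint genes BUB1, BUB1B, MAD2L1, TTK and CDC20 were examined in goat oocytes. Members were taken by their symbol in the table of FPKM (fragments counted per length of the transcript and per total of mapped fragments), and the 10 symbols matched 11 of the 21343 genes, because CDC20 stands in 2 rows. The table held RNA-seq values of oocytes of Ji'ning grey goats, a breed known for large litters, from a high fertility and a low fertility population. Oocytes of large, medium and small follicles were named HLO, HMO and HSO in the high fertility population and LLO, LMO and LSO in the low fertility population. There were 5 samples in each group and 4 in HSO, which held replicates 1, 3, 4 and 5, and 29 samples in all. No treatment was given, and the animals' age was not given in the sources used here. A sample was a small pool of oocytes drawn from those collected for its follicle size, and the goats behind each sample were not recorded, so that p-values measure the spread between these samples and not between goats.

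Mammalian oocytes stay arrested in the first meiotic prophase while the follicle grows, and store mRNA that is translated when meiosis resumes. The Aurora kinases phosphorylate proteins of spindle poles, chromosomes and kinetochores. AURKA acts at spindle poles, AURKB in the chromosomal passenger complex of dividing body cells, and AURKC takes the AURKB position in germ cells. PLK1 drives spindle assembly and exit from the arrest, whereas PLK4 starts the building of new centrioles, which oocytes lose as they grow. The spindle checkpoint delays anaphase until kinetochores are attached. TTK, also called MPS1, recruits BUB1 to kinetochores, MAD2L1 and BUB1B are parts of the inhibitory complex, and CDC20 is the activator of the anaphase promoting complex that this complex holds back.

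FPKM summed to 222697 to 490048 per sample, and 6646 to 8689 genes were above 0.5 FPKM. The depth of single values is unknown, since FPKM are not counts. The oocyte markers ZP3, GDF9 and BMP15 were detected in all 29 samples, with medians of 1274, 246 and 167 FPKM. The 12 symbols of that list summed to 641 to 9211 FPKM, carried mostly by ZP3. Others of the list were low, with medians of 2.48 FPKM for DDX4, 0.888 and 0 for the 2 rows of DAZL, and 0.274 for NLRP5, which exceeded 0.5 FPKM in 5 samples. Of the granulosa markers, AMH was listed at 0 in every sample and FSHR stayed at or below 0.283 FPKM, while STAR ranged from 4.32 to 39.0 FPKM and made up most of the summed level of that list (8.51 to 44.6 FPKM over 13 genes). KITLG (median 3.78) and HAS2 (1.45) also exceeded 0.5 FPKM in all 29 samples, and GJA1 in 19. INHBA exceeded it in 10, FST in 5, INHA and CYP11A1 in 1 each, and LHCGR, CYP19A1 and AMHR2 in none. Theca or stroma markers summed to 5.32 to 43.4 FPKM and leukocyte markers to at most 0.672. Among the former, DCN had a median of 7.26 FPKM, ACTA2 3.33, COL1A2 1.58, LUM 0.268, and COL1A1 and PDGFRA 0. Markers of dividing body cells summed to 166 to 5610 FPKM, of which PCNA, a DNA replication factor, had a median of 1590. TYMS, TOP2A, MCM3 and MKI67 were also above 0.5 FPKM in all 29 samples, with medians of 22.1, 10.9, 4.20 and 1.17. The medians of MCM5, RRM2 and MCM2 were 0.805, 0.194 and 0.0428 FPKM. Whether these transcripts came from oocytes or other cells was not tested. Since bulk pools were measured, a smaller amount of RNA per oocyte and a smaller share of oocytes in a pool cannot be told apart.

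AURKA was by far the highest of the 10 genes, and PLK4 the lowest. AURKA (ENSCHIG00000024453) ranged from 968 to 3130 FPKM with a median of 1319 over the 29 samples. Its rank among all genes of a sample lay between 15 and 96, with a median of 58. MAD2L1 followed with a median of 113 FPKM (4.27 to 657), and AURKC with 50.4 FPKM (14.1 to 258). These 3 genes were also unlike in their stability. The coefficient of variation over samples was 32.3% for AURKA, 95.7% for MAD2L1 and 86.9% for AURKC. In the middle of the order stood TTK with a median of 23.1 FPKM, AURKB with 14.8, PLK1 with 13.9, CDC20 with 13.1 and BUB1B with 10.4. BUB1 had a median of 5.85 FPKM. PLK4 was at 0.513 FPKM, above 0.5 FPKM in 15 of 29 samples, whereas the other 9 genes were above it in all 29. The second CDC20 row (ENSCHIG00000009790) was listed at 0 in 12 samples and reached at most 0.341 FPKM, so it did not pass the limit of 0.5 FPKM used for the tests. CDC20 below stands for ENSCHIG00000020079, and its level is uncertain to the extent that reads of the 2 rows could not be told apart.

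**Figure D1:**
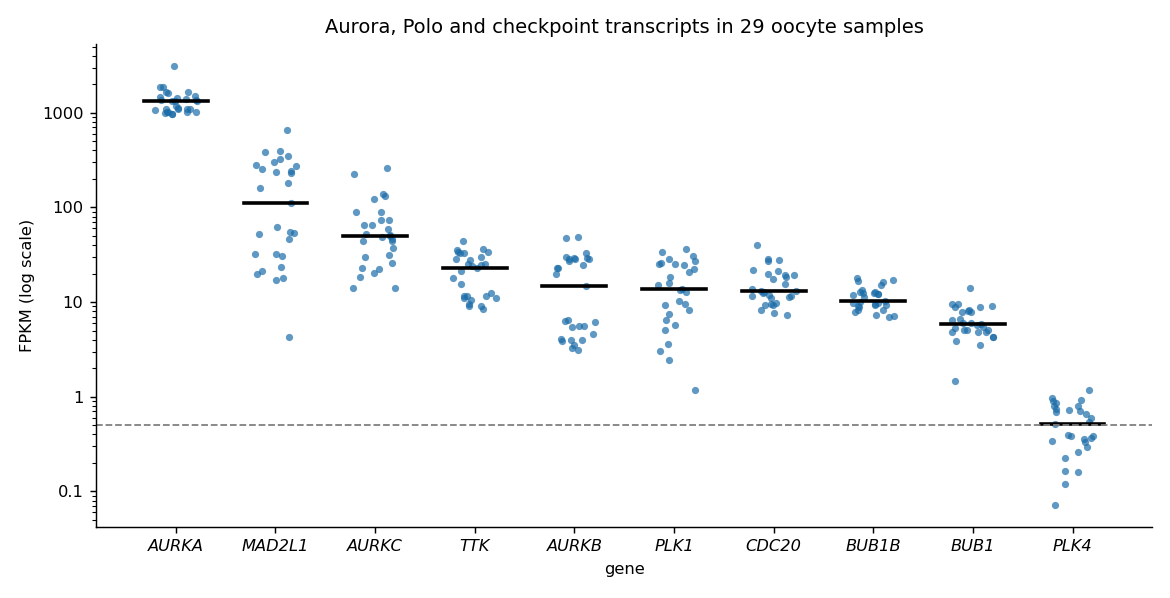
FPKM (log scale) of the 10 genes in the 29 samples, each point 1 sample, with the median as a black line and 0.5 FPKM as a dashed line. AURKA lies above every other gene in all samples, with a median of 1319 FPKM, AURKB falls into a low and a high set of samples, and PLK4 lies around 0.5 FPKM.

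Neighbours in this order were compared within each sample on the log2(FPKM + 1) scale. No p is given for them as neighbours, since the order came from the same values. BUB1 and BUB1B are also among the gene pairs tested below, and the p given there is for this same difference. AURKB and PLK1 differed by -0.04 ± 0.88 (mean ± SD of log2 differences over the 29 samples), and AURKB was the higher in 14 of 29 samples. PLK1 and CDC20 differed by -0.21 ± 0.92, and PLK1 was the higher in 16 of 29. In both pairs the mean difference was smaller than its SD, so the places of AURKB, PLK1 and CDC20 in the order are not settled. MAD2L1 was above AURKC in 21 of 29 samples (0.83 ± 1.46), TTK above AURKB in 24 (0.63 ± 0.73) and CDC20 above BUB1B in 25 (0.38 ± 0.32). The mean difference was smaller than its SD for MAD2L1 and AURKC and for TTK and AURKB, too. AURKC was above TTK and BUB1B above BUB1 in 28 of 29, and AURKA was above MAD2L1 and BUB1 above PLK4 in all 29.

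Within the Aurora family, AURKA was the highest and AURKC was above AURKB in every sample. AURKA made up 78.6 to 98.9% of the summed FPKM of the 3 Aurora genes, with a median of 95.1%. The median share was 3.87% for AURKC and 1.41% for AURKB. The FPKM ratio of AURKA to AURKC had a median of 24.7 and ranged from 3.95 to 107, and that of AURKA to AURKB had a median of 67.6 and ranged from 29.6 to 1004. The ratio of AURKB to AURKC stayed below 1 in all 29 samples (median 0.228, range 0.0481 to 0.668). Between the Polo kinases, PLK1 was above PLK4 in 29 of 29 samples, with a median ratio of 28.6 (7.27 to 90.6). Among the checkpoint genes, BUB1B was above BUB1 in 28 of 29 samples (median ratio of BUB1 to BUB1B 0.594, range 0.0978 to 1.12), and MAD2L1 was above CDC20 in 28 of 29 (median ratio 8.53, range 0.195 to 33.9). The exception to the last was LMO replicate 2, with 4.27 FPKM of MAD2L1 and 21.9 of CDC20. LMO replicate 2 had the lowest summed FPKM of all samples (222697). The extreme ratios of 1004, 0.0481 and 0.0978 all came from LLO replicate 2, the sample with the fewest genes above 0.5 FPKM (6646). Each of these 6 within-sample differences of log2(FPKM + 1) had an adjusted p of 1e-05 in a permutation test that flips the sign of each sample's difference (two-sided, 29 samples), the smallest that 100000 resamples can give. The test takes all 29 samples as independent, and samples with the same replicate number varied together for some genes.

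AURKA stayed within a 3.23-fold range over all samples, and the values of samples are given here in the order of their replicate numbers. In HLO the samples held 1183, 1366, 1458, 1523 and 1637 FPKM, in LLO 1018, 3130, 1894, 968 and 1896, and in HMO 978, 1106, 1342, 1086 and 1072. In LMO they held 1000, 1103, 1655, 1319 and 1332 FPKM, in HSO 1010, 1432, 1014 and 1667, and in LSO 1021, 1410, 1125, 1110 and 1373. LLO replicate 2 stood highest at 3130 FPKM, and no other sample exceeded 1896. That sample also had the fewest genes above 0.5 FPKM (6646) and the lowest summed oocyte markers (641 FPKM). The part of these features in its AURKA level was not tested. Group means ± SD (n = 5, and 4 in HSO, as for the genes below) were 1433 ± 171 FPKM in HLO, 1781 ± 879 in LLO, 1117 ± 135 in HMO, 1282 ± 252 in LMO, 1281 ± 325 in HSO and 1208 ± 173 in LSO. LLO had the largest spread, and all groups overlapped.

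AURKC varied more. Its values were 46.4, 20.3, 29.7, 14.2 and 90.3 FPKM in HLO and 44.5, 64.8, 22.3, 227 and 138 in LLO. Medium follicles gave 134, 50.4, 53.1, 44.0 and 73.3 FPKM in HMO and 37.2, 31.2, 26.0, 48.9 and 64.6 in LMO, and small follicles gave 59.8, 14.1, 18.4 and 124 in HSO and 258, 23.2, 51.8, 89.0 and 73.6 in LSO. AURKC thus had a lower mean in HLO than in LLO, a higher one in HMO than in LMO, and again a lower one in HSO than in LSO, and the samples of each pair of groups overlapped. AURKB means were 17.5 ± 20.3 FPKM in HLO, 20.1 ± 14.3 in LLO, 15.01 ± 12.5 in HMO, 15.8 ± 11.1 in LMO, 20.3 ± 20.3 in HSO and 15.8 ± 11.4 in LSO, with SDs near the size of the means. The AURKB samples split in another way, since 14 of them lay at or below 6.50 FPKM and 15 at or above 14.8, with none between, and both sets held samples of every group.

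PLK1 was 17.997 ± 12.9 FPKM in HLO, 10.8 ± 7.31 in LLO, 13.9 ± 7.19 in HMO, 18.1 ± 12.7 in LMO, 19.4 ± 13.2 in HSO and 16.4 ± 11.1 in LSO (mean ± SD). Its lowest value, 1.17 FPKM, was that of LLO replicate 3, and its highest, 36.8 FPKM, that of HLO replicate 1. PLK4 was 0.564 ± 0.446 FPKM in HLO, 0.637 ± 0.283 in LLO, 0.432 ± 0.176 in HMO, 0.496 ± 0.375 in LMO, 0.457 ± 0.237 in HSO and 0.597 ± 0.248 in LSO. The largest group mean of PLK4 was thus below 1 FPKM, and the spread within a group exceeded the spread of the group means for both Polo kinases.

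Among the checkpoint genes MAD2L1 had the widest range, 154-fold between the lowest and the highest sample. MAD2L1 values were 272, 32.2, 51.8, 23.6 and 349 FPKM in HLO, 383, 54.8, 17.0, 235 and 657 in LLO and 329, 53.7, 32.4, 62.3 and 301 in HMO. They were 161, 4.27, 18.1, 183 and 253 FPKM in LMO, 284, 30.6, 113 and 396 in HSO and 46.4, 21.4, 19.7, 240 and 233 in LSO. The lowest sample of each of the 6 groups was at or below 32.4 FPKM and the highest at or above 240. TTK, the kinase at the head of the checkpoint, was 16.7 ± 10.5 FPKM in HLO, 21.0 ± 10.1 in LLO, 20.6 ± 10.9 in HMO, 25.5 ± 13.6 in LMO, 22.4 ± 8.89 in HSO and 24.3 ± 12.0 in LSO. CDC20 was 14.98 ± 8.11 FPKM in HLO, 19.1 ± 9.50 in LLO, 12.6 ± 4.09 in HMO, 16.9 ± 4.70 in LMO, 12.1 ± 1.98 in HSO and 18.7 ± 12.5 in LSO. BUB1B was the steadiest of the 10 genes over all 29 samples, with a coefficient of variation of 27.5% and a 2.57-fold range. In fold range it stood before AURKA only through LLO replicate 2, since the other AURKA samples spanned 968 to 1896 FPKM. The BUB1B means were 9.72 ± 2.13 FPKM in HLO, 13.2 ± 4.35 in LLO, 9.45 ± 2.50 in HMO, 11.7 ± 3.16 in LMO, 10.5 ± 1.22 in HSO and 12.9 ± 3.28 in LSO.

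BUB1 was the gene in which group membership accounted for the largest share of the variation among the 10. The BUB1 values were 5.999, 4.28, 4.23, 4.80 and 3.51 FPKM in HLO and 5.05, 1.47, 5.48, 8.93 and 4.79 in LLO. In HMO they were 5.05, 9.10, 4.89, 3.92 and 5.12 FPKM and in LMO 6.54, 14.0, 5.85, 9.52 and 8.05. In HSO they were 5.36, 5.72, 7.84 and 5.96 FPKM and in LSO 9.53, 8.87, 6.65, 8.30 and 7.95. Oocytes of large follicles had 4.85 ± 1.89 FPKM (SD, n = 10), those of medium follicles 7.20 ± 3.04 (n = 10) and those of small follicles 7.35 ± 1.49 (n = 9). HLO and LSO did not overlap (3.51 to 5.999 against 6.65 to 9.53 FPKM). This was the only one of the 15 pairs of groups without overlap for BUB1, and none of the 15 was without overlap for the other 9 genes. This is 0.667% of the 150 combinations of the 10 genes and 15 pairs, and over all genes tested 0.936% did not overlap. Membership in the 6 groups accounted for 41.9% of the sum of squares of log2(FPKM + 1) of BUB1, against 23.0% for AURKA, 1.86% for AURKB and a median of 16.8% over all genes. The ratio of the highest to the lowest group mean was 1.92 for BUB1, and larger for AURKC (2.47) and MAD2L1 (2.40). In the order of the BUB1 means, LMO, LSO, HSO, HMO, LLO and HLO, neighbouring groups overlapped, and so did neighbouring groups of each of the other 9 genes.

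**Figure D2:**
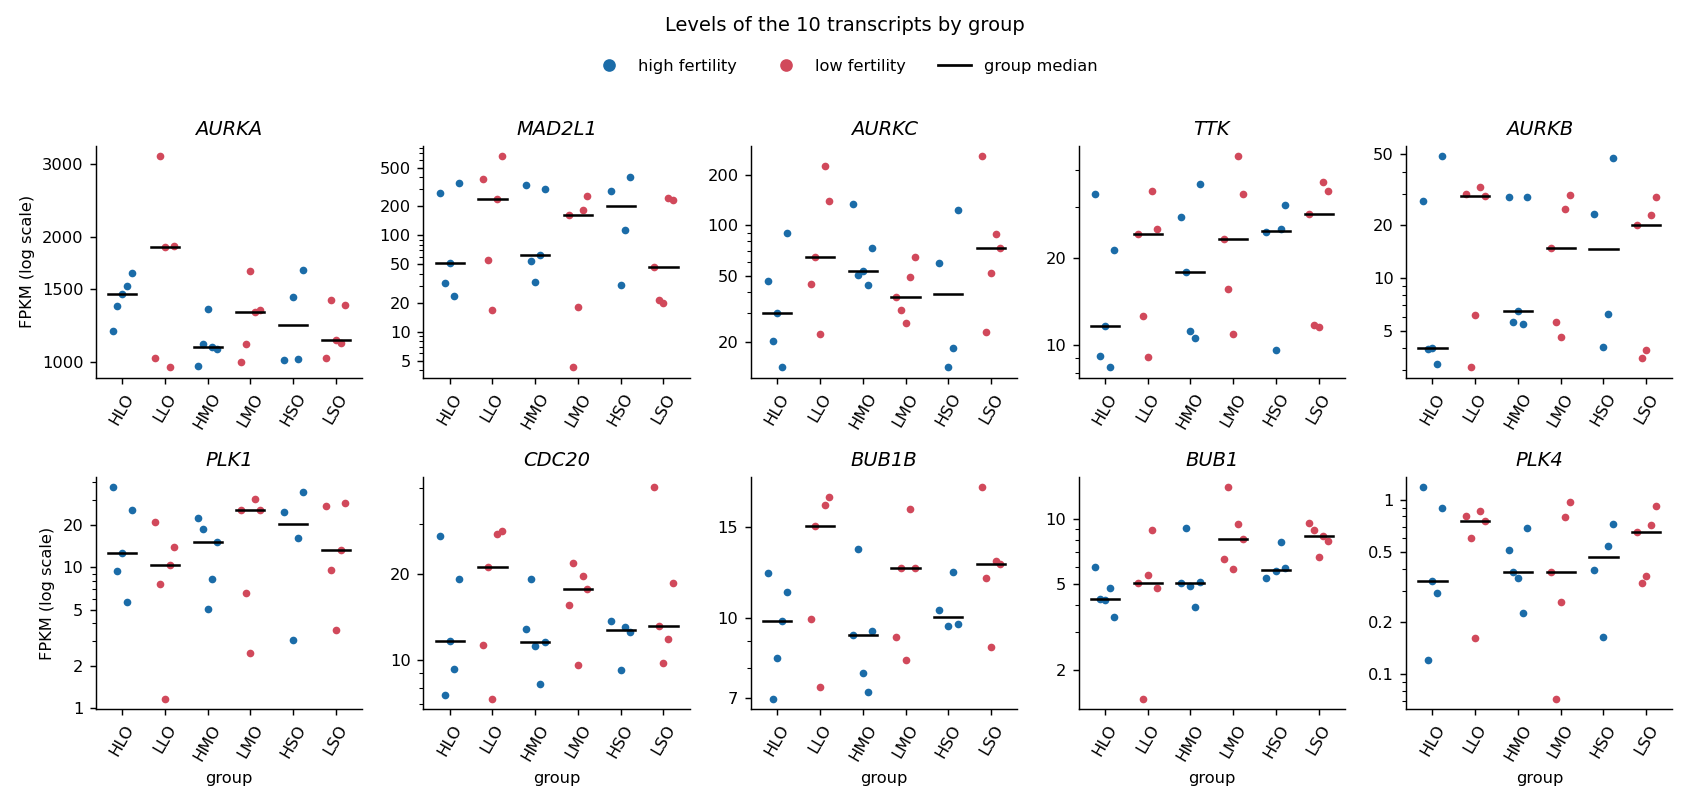
FPKM (log scale) of each gene by group, with high fertility samples in blue, low fertility samples in red and the group median as a black line; points are set from left to right by replicate number. Most genes spread over the same range in all 6 groups, and in BUB1 the HLO samples (3.51 to 5.999) lie below the LSO samples (6.65 to 9.53).

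The study set the high fertility population against the low one at each follicle size. A gene entered where 4 or more of the compared samples exceeded 0.5 FPKM. The test was limma's moderated one on log2(FPKM + 1), with Benjamini-Hochberg adjustment over all of them. All 10 genes were tested in each comparison. In none of the 3 comparisons did any of them pass an adjusted p of 0.05 by limma, nor an unadjusted p of 0.05.

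In large follicles, 0 of the 10 genes had an unadjusted p under 0.05, against 4.14% of the 8328 genes tested (0% after adjustment). AURKC had the smallest p, with a log2 difference of HLO to LLO of -1.14 (SE 0.687, 95% interval -2.61 to 0.34, limma adjusted p = 0.828). The estimates of 9 genes were negative and that of PLK1 was positive, with a median of -0.34 beside -0.09 over all genes. In medium follicles, 0 of the 10 genes had an unadjusted p under 0.05, against 8.67% of 8390 genes (0.0715% after adjustment). AURKC again had the smallest p, now with a higher estimate in HMO than in LMO (0.70, SE 0.392, 95% interval -0.14 to 1.55, limma adjusted p = 0.614). The median estimate was -0.16, beside -0.07 over all genes. With array weights, which give less weight to samples far from their group, 7 of the 10 genes had an unadjusted p under 0.05, all lower in HMO, but so had 3341 of the 8390 genes, the smallest adjusted p was 0.0672 for TTK, and the median of all genes moved to -0.32. The summed granulosa markers, made up mostly of STAR, were at 15.9 to 23.6 FPKM in HMO and 24.6 to 43.8 in LMO. In large follicles the direction was the other, at 23.3 to 39.7 FPKM in HLO and 12.4 to 26.9 in LLO. In small follicles they were at 22.6 to 38.9 FPKM in HSO and 8.51 to 44.6 in LSO. The part of these markers in the estimates was not tested. In small follicles, 0 of the 10 genes had an unadjusted p under 0.05, against 4.41% of 8376 genes (0.0119% after adjustment). BUB1 had the smallest p there (-0.36, SE 0.268, 95% interval -0.95 to 0.23, limma adjusted p = 0.880). The median estimate was -0.10, beside -0.01 over all genes. No gene of the 10 had separate high and low fertility samples in any of the 3 comparisons, against 0.432%, 1.7% and 2.05% of all genes in large, medium and small follicles.

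**Figure D3:**
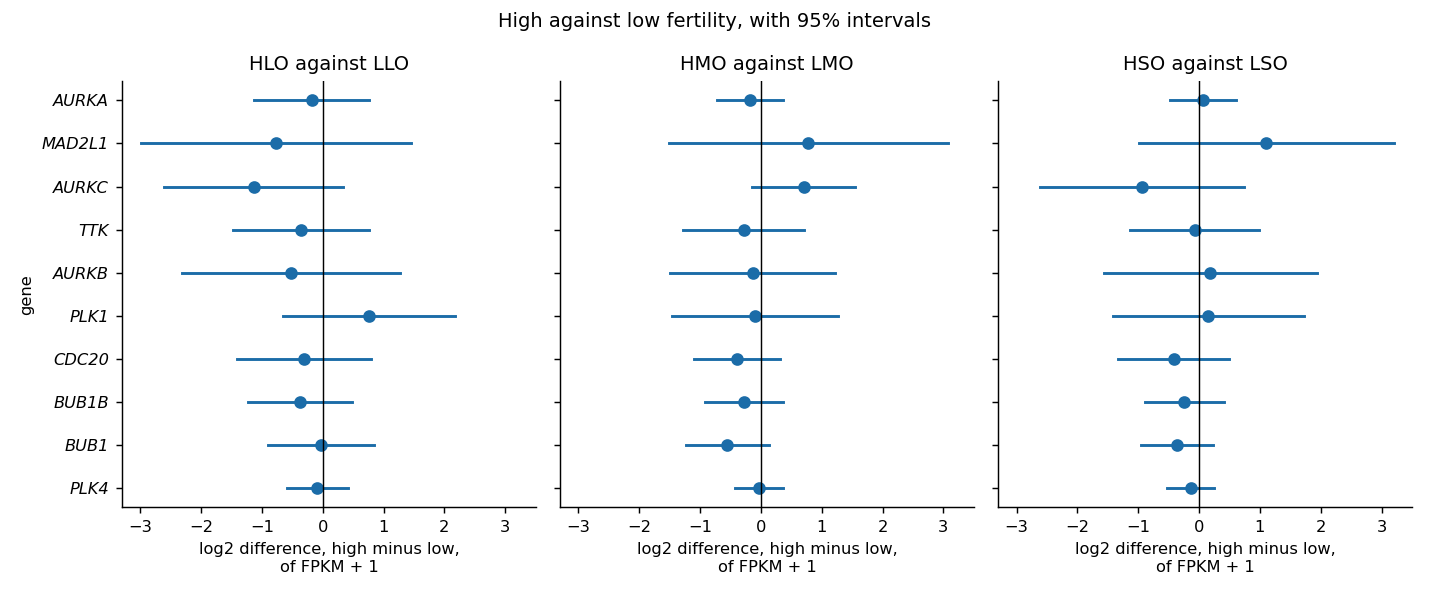
Log2 difference of FPKM + 1, high minus low fertility, in large, medium and small follicles, with 95% intervals from limma (n = 5 against 5, 5 against 5 and 4 against 5). Every interval includes 0, and the intervals are widest for MAD2L1 and narrow for PLK4, whose low level compresses the difference on this scale.

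The intervals show which sizes of difference these samples could not separate from 0. The standard errors of the 10 genes ran from 0.232 to 1.03 in large, 0.182 to 1.06 in medium and 0.175 to 0.950 in small follicles. Since 1 was added to FPKM before the logarithm, the differences of PLK4 are understated. A p above the threshold does not show that the populations were alike.

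Over all 3 follicle sizes together, 0 of the 10 genes had an unadjusted p under 0.05 between high and low fertility, against 9.99% of 9692 genes (0.0103% after adjustment). BUB1B had the smallest p, with a log2 difference of -0.30 (SE 0.155, 95% interval -0.62 to 0.02, limma adjusted p = 0.512). Its mean was 9.85 ± 1.96 FPKM in the high fertility samples (SD, n = 14) and 12.6 ± 3.43 in the low fertility samples (n = 15). The comparison of follicle sizes by limma's F-test put 1 of the 10 genes under an unadjusted p of 0.05, against 1.66% of all genes (0% after adjustment). This was BUB1 (limma unadjusted p = 0.0273, adjusted p = 1). Without LLO replicate 2, whose BUB1 value of 1.47 FPKM was the lowest of all, the limma unadjusted p was 0.0828 and no gene of the 10 was left. The effect of fertility was also compared between follicle sizes by an interaction term. None of the 10 genes had an unadjusted p under 0.05 in it, against 7.89% of all genes (0% after adjustment). AURKC had the smallest p there (limma unadjusted p = 0.107, adjusted p = 0.736).

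The 6 gene pairs above were also compared, as differences of log2(FPKM + 1) within a sample, between high and low fertility at each follicle size by exact permutation tests (two-sided, 18 comparisons). None had an unadjusted p under 0.05, and 2 had one when 0.1 was added in place of 1. The smallest was that of AURKA to AURKC in medium follicles, where the log2 difference was 4.07 ± 0.75 in HMO and 4.96 ± 0.61 in LMO (n = 5 each, exact p = 0.0556, adjusted p = 0.393). The smallest p that 5 against 5 samples allow is 0.00794.

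The labels number the replicates of each group from 1 to 5 without saying what a number stands for. The levels of several genes went with this number, a pattern looked for after the values were seen and given without a test. Within groups, the replicate number accounted for 78.7% of the sum of squares of log2(FPKM + 1) of AURKB, 75.9% of MAD2L1, 75.1% of PLK1, 65.9% of TTK and 60.5% of PLK4. The median over all genes was 42.3%, with quartiles of 27.3% and 58.4%. It was 44.3% for AURKA, 43.5% for AURKC, 34.8% for BUB1B, 30.9% for CDC20 and 7.90% for BUB1. Thus AURKB, MAD2L1, PLK1, TTK and PLK4 lay above the upper quartile of all genes, and BUB1 below the lower one.

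AURKB was at 14.8 to 29.7 FPKM in the 6 samples numbered 1 and 28.6 to 48.9 in those numbered 5. It was at 3.12 to 5.63 FPKM in the 5 samples numbered 2 and 3.91 to 6.50 in those numbered 3. MAD2L1 had medians of 278 FPKM in number 1 and 325 in number 5, against 32.2 in number 2 and 25.2 in number 3. TTK ranged from 23.1 to 33.1 FPKM in number 1 and from 21.3 to 35.7 in number 5, and from 9.15 to 17.9 in number 2 and 9.07 to 11.6 in number 3. These 3 genes were therefore low in numbers 2 and 3 and high in numbers 1 and 5, whatever the group, apart from MAD2L1 in LSO replicate 1 at 46.4 FPKM. The number of genes above 0.5 FPKM moved the same way, with medians of 8268.5, 7421, 7239, 8149 and 8279 for numbers 1 to 5. Its part in the levels was not tested.

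The samples numbered 4 were divided by population. AURKB was at 3.25 FPKM in HLO, 5.47 in HMO and 6.24 in HSO, and at 32.7 in LLO, 24.6 in LMO and 22.7 in LSO. MAD2L1 was at 23.6, 62.3 and 113 FPKM in HLO, HMO and HSO, and at 235, 183 and 240 in LLO, LMO and LSO. TTK was at 8.37, 10.5 and 25.1 FPKM in the high fertility groups and at 34.0, 44.7 and 36.3 in the low ones. In 7 of the 10 genes, AURKB, AURKC, PLK4, BUB1, BUB1B, MAD2L1 and TTK, all 3 high fertility samples numbered 4 lay below all 3 low fertility samples, against 35.1% of all genes. Such a separation, in either direction, was seen in 0 of the 10 genes in numbers 1 and 2, in 1 in number 3 (MAD2L1, higher in the high fertility samples) and in 1 in number 5 (BUB1B, lower in them). The corresponding shares of all genes, lower and higher in high fertility, were 1.13% and 4.05% in number 1, 11.1% and 13.2% in number 2, 2.58% and 5.84% in number 3, 3.91% higher in number 4, and 7.58% and 5.96% in number 5. When the samples numbered 4 were left out, the log2 difference of AURKC between HLO and LLO was -0.44 in place of -1.14, and those of AURKB and TTK turned from -0.52 and -0.36 to 0.09 and 0.03. None of the 10 genes had an unadjusted p under 0.05 in any comparison of fertility then. Of all genes tested, 315 of 7879 had one in large, 318 of 7979 in medium and 229 of 7813 in small follicles. Over all sizes there were 618 of 9401. All 10 genes were tested except PLK4 in medium and small follicles.

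**Figure D4:**
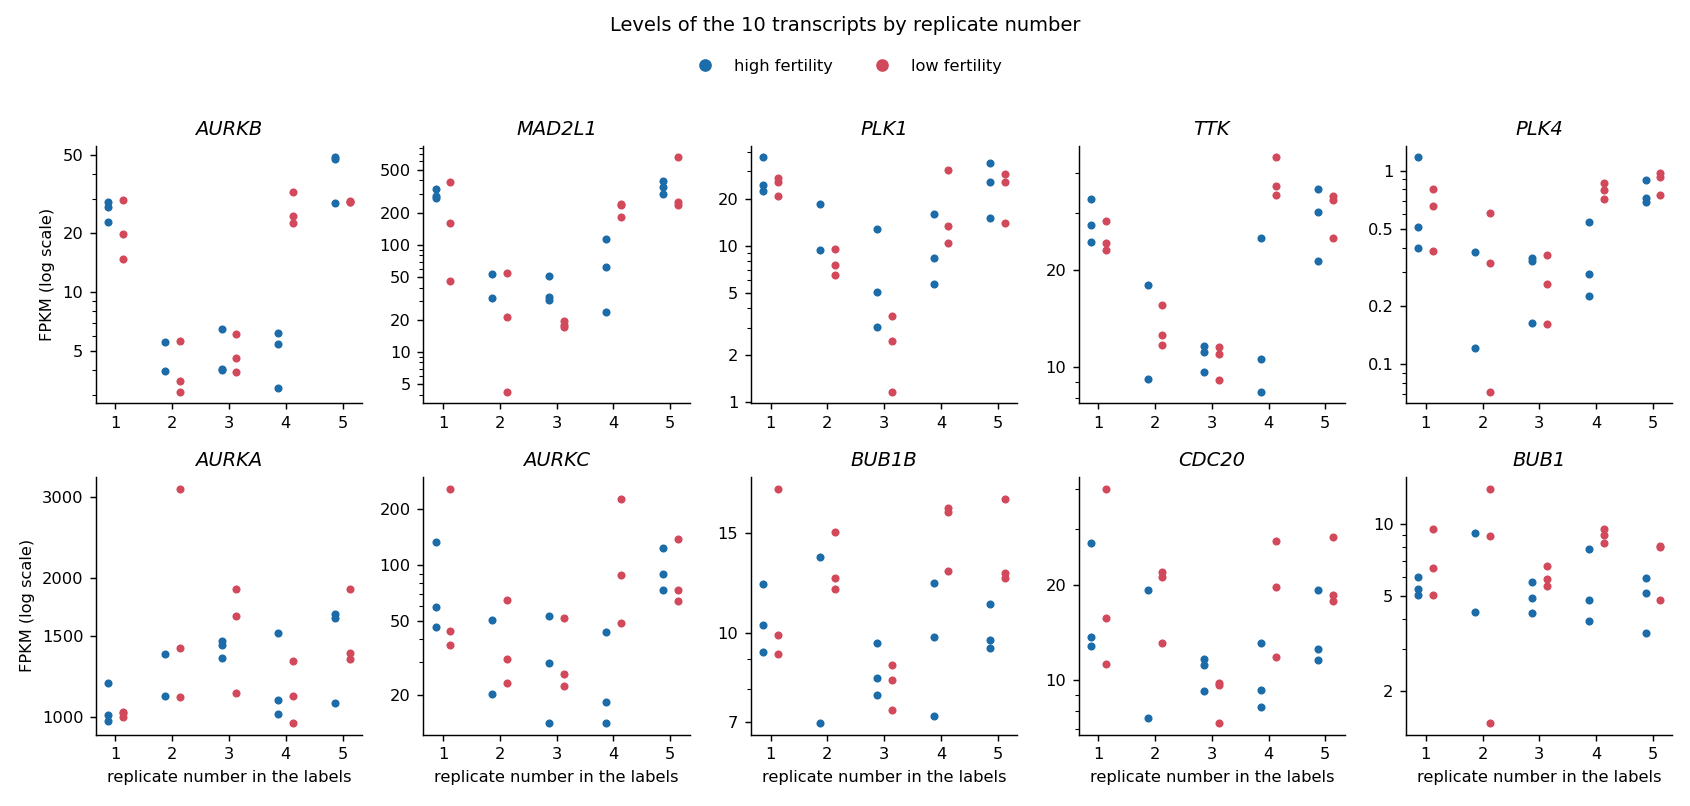
FPKM (log scale) of each gene by the replicate number in the labels, with high fertility samples in blue and low fertility samples in red; the genes are ordered by the share of within-group variation that goes with the number. AURKB is at 3.12 to 6.50 FPKM in all samples numbered 2 and 3 and at 14.8 or more in all numbered 1 and 5, and the samples numbered 4 divide by population.

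Other genes of the same processes were counted from fixed lists. Of the chromosomal passengers and Aurora activators, BIRC5 (survivin) had a median of 99.4 FPKM in 1 row and 0.256 in another, CDCA8 (borealin) 65.3, and INCENP, the scaffold of the complex, 0.627 FPKM. Of the other checkpoint proteins, BUB3, the partner of BUB1 and BUB1B, was highest with a median of 181 FPKM (20.2 to 981), and MAD1L1, the kinetochore anchor of MAD2L1, lowest with 0.464. Among kinetochore genes SPC25 was highest (300.5 FPKM). SKA3 was listed at 0 in all samples in 1 row and had a median of 18.8 FPKM in another. CENPA, the centromeric histone, had a median of 0.232 FPKM. In the anaphase promoting complex list PTTG1 (securin), a target of the complex, reached a median of 3898 FPKM in 1 of its 2 rows, above AURKA, and was listed at 0 in the other. ANAPC2 was the lowest subunit, with a median of 0.0717 FPKM. Of the other Polo kinases and partners of PLK4, SASS6, a centriole cartwheel protein, had 25.2 FPKM, and PLK5 was listed at 0 in 24 of 29 samples.

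None of these listed genes had a limma adjusted p under 0.05 in any comparison. With an unadjusted p under 0.05, there were 1 of 64 in large, 4 of 61 in medium and 1 of 62 in small follicles, and 7 of 65 over all sizes, which is 1.56%, 6.56%, 1.61% and 10.8%, beside 4.14%, 8.67%, 4.41% and 9.99% of all genes. Follicle size gave 1 of 65 (1.54%, beside 1.66%) and the interaction 3 of 65 (4.62%, beside 7.89%). Within a follicle size these were 0 chromosomal passengers and Aurora activators, 0 kinetochore genes, 1 other checkpoint gene, lower in HMO, 4 rows of the anaphase promoting complex list, all higher in high fertility, and 1 partner of PLK4, lower in HLO. In medium follicles, TPR, a nuclear pore protein that binds MAD1L1, was 4.58 ± 1.05 FPKM in HMO and 9.67 ± 3.36 in LMO (log2 difference -0.90, unadjusted p = 0.0114, limma adjusted p = 0.366). Of the anaphase promoting complex, 2 rows of ANAPC10 and CDC16 had higher estimates in HMO, by 0.70, 1.31 and 0.70 on the log2 scale. Among these, ANAPC10 was 278 ± 68.6 FPKM in HMO and 123 ± 53.7 in LMO in its most abundant row. The other of these ANAPC10 rows was near the limit of 0.5 FPKM, with 1.36 ± 0.416 in HMO and 0.487 ± 0.452 in LMO. A further row of ANAPC10, with a median of 0.679 FPKM over the 29 samples, was not among those with an unadjusted p under 0.05. In small follicles ANAPC13, another subunit, was 138 ± 18.03 FPKM in HSO and 70.5 ± 35.3 in LSO. In large follicles STIL, a binding partner of PLK4, was 1.32 ± 1.06 FPKM in HLO and 2.92 ± 1.25 in LLO. By limma the adjusted p of these genes lay between 0.291 and 0.880. Over all follicle sizes the estimates went in both directions. ANAPC13 (0.60) and CDC26 (0.39), subunits of the anaphase promoting complex, had higher estimates in high fertility on the log2 scale. FBXO43, an inhibitor of that complex, had a lower one (-0.46), as did CDCA8 (-0.45), TPR (-0.44), STIL (-0.44) and the kinase PLK2 (-0.41), and their limma adjusted p lay between 0.436 and 0.497. MAD1L1 was the gene of the lists with an unadjusted p under 0.05 for follicle size (limma unadjusted p = 0.0366, adjusted p = 1). AJUBA, an activator of AURKA, and 2 rows of ANAPC10 were those for the interaction, with limma adjusted p of 0.596, 0.563 and 0.616.

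The genes whose levels ran most like those of each member over the 29 samples were named by Spearman's rho of FPKM, as a description without a test, since samples that share a number are not independent points. The closest were ORMDL1 for MAD2L1 (rho 0.977), ME1 for TTK (0.945), AAGAB for AURKB (0.942), FBXL4 for PLK4 (0.927), THAP9 for AURKC (0.916), ACTR8 for BUB1 (0.916) and TMEM248 for PLK1 (0.906). CDC20 ran most like RPN1 (0.906) and BUB1B like DDX10 (0.905), and both had RRM1 as the next closest (0.901 and 0.902). The symbols AAGAB and RPN1 stand in 2 rows each, so these names are uncertain. AURKA stood apart, with PDCL as its closest gene at 0.736. The median rho with all other genes was -0.17 for AURKA and positive for the other 9, from 0.13 for BUB1 to 0.46 for TTK.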

How the data were processed

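RNA of 29 samples of goat oocytes was measured by RNA-seq of polyadenylated RNA. The authors kept uniquely matched reads, removed duplicates with picard and deposited FPKM per gene, computed by Cufflinks 2.2.1 from Ensembl gene models; the aligner and the genome build are not given in the sources used here. FPKM divides by transcript length and total, and levels of different genes were set side by side on that scale. Whether the selection of polyadenylated RNA or the limit to uniquely matched reads acted unequally on genes was not tested. A change in a few abundant genes shifts all others. Sample names tied columns to samples, and 1 column that matched none was left out. Groups and replicate numbers were taken from the sample titles.

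Where 4 or more of the fitted samples exceeded 0.5 FPKM, a gene was tested with limma 3.58.1 (R 4.3.3), with a mean-variance trend, on log2(FPKM + 1) with Benjamini-Hochberg adjustment over all genes tested. Each follicle size was fitted on its 2 groups, and the F-tests for follicle size and interaction on all samples. Within-sample differences of 6 gene pairs were tested by sign-flip permutation with 100000 resamples, and ratios between populations by exact permutation (the planned test of neighbours in the order of levels is not reported, since the same values set the order), in Python 3.11.15 with numpy 2.4.6, pandas 2.3.3 and scipy 1.17.1. Figures were drawn with matplotlib 3.10.9. The procedures were tested on simulated data.

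The members, the lists of related genes (chromosomal passengers and Aurora activators, other checkpoint proteins, kinetochore, anaphase promoting complex, other Polo kinases) and the marker lists (oocyte, granulosa, theca or stroma, leukocyte, dividing cells) were chosen with earlier results of these data known. All 10 members are named with their levels. A fold change and p are given for members with an unadjusted p under 0.05, or else for the one of smallest p. Listed genes are named at an unadjusted p under 0.05 (at most 3 per list and comparison), or as the highest or lowest of the list, and a few more levels were chosen after the values were seen. Alternatives were pseudocounts of 0.1 and 0.5, a filter at 1 FPKM or none, quantile normalization, median-of-ratios factors, totals without mitochondrially encoded genes, array weights, a replicate block, 1 fit over all samples and each sample left out in turn; leaving out the samples numbered 4 was added after the data were seen.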

Additional observations from a re-analysis of the deposited data

Results flagged for a closer look

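In 3 of the 60 combinations of a member and a group, 1 sample lay further from the others than Dixon's test allows at the 95% level. Chance alone flags about 1 in 20 such groups where values are normally distributed. The test was run on FPKM without a logarithm, where this need not hold. On the log2(FPKM + 1) scale of the other tests, the gaps of these 3 samples were a smaller share of the range. AURKC in LSO replicate 1 was at 258 FPKM, against 23.2 to 89.0 in the other LSO samples. CDC20 in the same sample was at 40.2 FPKM, against 9.80 to 18.6 in the others. BUB1 in HMO replicate 2 was at 9.10 FPKM, against 3.92 to 5.12 in the other HMO samples.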

How the results depend on the processing

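The count of members with an adjusted p under 0.05 was 0 in all 6 comparisons under every alternative, and the 6 gene pairs kept an adjusted p under 0.05 with each sample left out. The count with an unadjusted p under 0.05 moved more. With array weights it was 2 in large, 7 in medium and 0 in small follicles, 6 over all sizes and 3 for follicle size. Over all genes the same weights gave 1372 of 8328, 3341 of 8390, 679 of 8376, 3278 of 9692 and 817 of 9692. With median-of-ratios factors and with quantile normalization it was 1 in medium follicles, 0 for follicle size and 1 for the interaction. Over all genes the median-of-ratios factors gave 816 of 8390, 163 of 9692 and 928 of 9692 there. Quantile normalization gave 817 of 8390, 196 of 9692 and 978 of 9692. With totals of genes not encoded in the mitochondrion it was 2 over all sizes and 0 for follicle size, beside 1254 and 151 of 9697 genes. Without a filter it was 1 over all sizes, where both rows of CDC20 were tested, beside 1371 of 17172 genes. A pseudocount of 0.1 gave 2 ratios of gene pairs that differed between high and low fertility at an unadjusted p under 0.05. With 1 sample left out, the counts ranged from 0 to 1 in large and medium follicles, for follicle size, for the interaction and for the pair ratios, from 0 to 2 over all sizes and were 0 in small follicles. The counts over all genes moved too, from 152 of 8095 to 879 of 8256 in large follicles. They ran from 398 of 8251 to 1046 of 8280 in medium follicles, and from 721 of 9641 to 1330 of 9657 over all sizes. The log2 difference of AURKB to PLK1 ranged from -0.10 to 0.0154, so that its direction turned. The median of all genes moved from -0.07 to -0.25 in medium follicles with non-mitochondrial totals and to -0.32 with array weights. The causes were not tested.

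Replicate numbers were tested as a block, but the samples share only a number: correlations of same-numbered deviations ran from -0.05 to 0.52 in large, -0.41 to 0.65 in medium and -0.48 to 0.71 in small follicles, so the criterion that every pair correlates was not met. Over all groups, same-numbered samples correlated from 0.20 to 0.64 in number 2, 0.46 to 0.74 in number 3 and 0.33 to 0.71 in number 5, but from -0.26 to 0.64 in number 1 and -0.57 to 0.63 in number 4, and 21 of the 29 samples were closest to one of their own number, a hint of pairing from the data. With the replicate block the unadjusted count was 1 in small follicles (AURKC), 1 over all sizes (BUB1B), 1 for the interaction (AURKC) and 1 for follicle size. Over all genes the block gave 788 of 8376 in small follicles, 1461 of 9692 over all sizes, 1405 for the interaction and 277 for follicle size. The depth behind a value is unknown, and PLK4 lies near the lower limit of the filter.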
